A study of Homo sapiens with 6 samples.

Results

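DNA replication and G1/S genes, a list of 46 genes that take part in copying DNA or in the switch into S phase, were followed in MDA-MB-231. This established human cell line comes from a breast cancer without oestrogen, progesterone or HER2 receptor (triple-negative). Each gene was read from the array probe sets that carry its symbol alone, and the brightest probe set by the mean of the 6 arrays stood for it. All 46 listed genes were measured, out of 18417 genes in the series. Cells of 1 group received 10 µM YW3-56 for 8 h, and cells of the other received the vehicle DMSO, for which no separate time is given. There were 3 arrays in each group, called biological replicates in the labels, and both groups grew in the same serum-containing medium. YW3-56 is known as an inhibitor of peptidylarginine deiminases, enzymes that turn protein arginine into citrulline. Values are log2 expression after RMA, a procedure that removes background, brings the arrays' probe values to a common distribution and gives each probe set a single value.

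DNA replication is prepared in G1, when the origin recognition complex (ORC), CDC6 and CDT1 load the MCM2 to MCM7 ring onto DNA, a step called licensing. In S phase the ring is switched on by CDC45 and the GINS complex, and polymerases, the sliding clamp PCNA and its loader RFC copy the strands with nucleotides supplied by ribonucleotide reductase and thymidylate synthase. Many of these genes are known targets of the E2F transcription factors, of which E2F1 and E2F2 act mainly as activators and E2F7 and E2F8 as repressors. In cancer cells the set is widely read as a sign of proliferation.

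Promoter sequences were examined because E2F sites are a known shared feature of the family. RefSeq windows of assembly GRCh38.p14, covering 250 bases before and 50 after a gene's start, were found for 41 of the 46 genes, in 52 windows, with no entry used for MCM4, MCM5, GINS4, RPA2 and E2F8. The E2F motif was searched on both strands as TTCCCGC, in its classical form, as TTGGCGC, its other classical form, and also as TTCGCGC and, last, as TTGCCGC. The windows printed here belong to the 3 genes with the largest change among those that passed the test and hold an E2F motif, namely E2F7, which rose, and UHRF1 and RRM2, which fell. Capitals mark the E2F motifs, written 5′ to 3′ along the gene's own strand. The E2F7 window lies at chr12:77065520-77065819 on the minus strand, the UHRF1 window at chr19:4909251-4909550 on the plus strand and the RRM2 window at chr2:10122318-10122617 on the plus strand. Where a gene had several windows with the motif, the one with the lowest coordinate is shown.
E2F7: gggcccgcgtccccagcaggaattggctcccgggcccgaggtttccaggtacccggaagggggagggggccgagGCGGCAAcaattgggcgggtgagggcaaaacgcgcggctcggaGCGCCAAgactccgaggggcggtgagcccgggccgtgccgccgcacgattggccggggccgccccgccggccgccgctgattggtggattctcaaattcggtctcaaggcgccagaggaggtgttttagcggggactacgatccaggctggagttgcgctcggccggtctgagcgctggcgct
UHRF1: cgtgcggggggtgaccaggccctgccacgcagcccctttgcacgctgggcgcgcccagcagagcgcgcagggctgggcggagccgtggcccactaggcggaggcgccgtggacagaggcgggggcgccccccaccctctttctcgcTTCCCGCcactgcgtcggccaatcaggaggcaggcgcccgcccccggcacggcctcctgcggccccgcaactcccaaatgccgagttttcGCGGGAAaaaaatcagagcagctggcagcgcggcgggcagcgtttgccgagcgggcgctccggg
RRM2: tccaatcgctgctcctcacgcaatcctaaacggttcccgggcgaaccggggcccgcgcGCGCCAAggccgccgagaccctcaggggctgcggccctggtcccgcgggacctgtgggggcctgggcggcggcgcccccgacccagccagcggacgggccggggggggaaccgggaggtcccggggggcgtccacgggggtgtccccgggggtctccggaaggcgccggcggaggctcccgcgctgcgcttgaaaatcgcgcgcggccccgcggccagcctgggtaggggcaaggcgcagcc

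The first motif base lay 176 and 133 bases before the start in E2F7, 104 and 14 in UHRF1 and 192 in RRM2. An E2F motif was present in at least 1 window of 34 of the 41 genes, or 82.9%, against 21.0% of 14239 tested genes with a window. Counted by window, 36 of 52 held it (69.2%), against 13.0% of all 35116 windows. The median GC content of the members' windows was 67.8%, against 58.7% over all windows, and E2F motifs are rich in G and C. The CCAAT box, searched as CCAAT on both strands, was in 25 of the 41 genes (61.0%), against 42.2% of tested genes. Its reverse complement can share bases with TTGGCGC. The cell cycle element CHR, searched as TTTGAA on both strands, was in 1 of 41, RRM1 (2.44%), against 15.7% of tested genes. Of the 34 genes with an E2F motif, 12 were lower in YW3-56 (35.3%, median log2 fold change -0.19), and of the 7 without it 3 were lower (42.9%, median -0.27). Those 7 were ORC2, ORC6, CDC45, MCM10, POLD1, FEN1 and SLBP. A match only says that these letters are in the window, and no test was run on these shares.

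Markers of the cell line and of other cell types were read in the same way. Group means of VIM, CD44, AXL, CAV1 and MSN, genes of mesenchymal breast cancer lines, lay between 12.93 and 13.36, while ESR1, PGR and CDH1, luminal or epithelial genes, lay between 5.90 and 6.82 and the blood gene PTPRC at 5.20 in YW3-56 and 5.36 in DMSO. The luminal genes ERBB2 (9.17 in YW3-56 and 9.09 in DMSO) and FOXA1 (9.20 in YW3-56 and 8.70 in DMSO) were brighter, although brightness also depends on the probes. Group means in YW3-56 and DMSO were 7.20 and 7.57 for GATA3 and 7.41 and 7.76 for EPCAM, the other luminal genes. For the endothelial genes they were 6.30 and 6.25 (PECAM1) and 6.93 and 6.97 (CDH5). Of the markers, FOXA1 rose (0.50 ± 0.14), CAV1 (-0.43 ± 0.09) and GATA3 (-0.37 ± 0.09) fell and the other 12 of 15 did not pass. FOXA1 was lost without DMSO replicates 1, 2 or 3 (adjusted p = 0.0599, 0.0659 and 0.0665) or YW3-56 replicate 2 (0.126) or 3 (0.129). GATA3 was lost without DMSO replicate 2 (0.0543) or YW3-56 replicate 3 (0.0982) and after centring of each array (0.0703). DMSO replicate 1 stood apart for the replication genes: it held the highest of the 3 DMSO values for 37 of the 46 (80.4%), against 35.3% of all genes, and DMSO replicate 2 held the highest for 0 of the 46, against 18.5% of all genes. The median deviation of the 46 genes from their DMSO mean was -0.23, -0.17 and -0.17 in the YW3-56 replicates 1, 2 and 3, against 0.08, -0.05 and -0.03 in the DMSO replicates. For all genes it was -0.07, -0.02 and -0.06 in the YW3-56 replicates and -0.02, -0.01 and 0.03 in the DMSO replicates. Counts and medians were also computed without DMSO replicate 1.

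After YW3-56, 17 of the 46 replication genes fell, 1 rose and 28 did not pass the test, limma with an adjusted p under 0.05 over all 18417 genes. The rise was that of the repressor E2F7 (1.54-fold), and the largest falls were those of E2F8 (1.58-fold), UHRF1 (1.52-fold), FEN1 (1.50-fold) and RRM2 (1.49-fold). Over all genes 21.4% were called, 9.84% as higher and 11.5% as lower, against 39.1% of the replication genes, with 37.0% lower. The members were chosen with earlier results of these data known, so these shares are a description. None of the 46 changed by 2-fold or more, while 1.42% of all genes both passed the test and did so. The median log2 fold change of the 46 was -0.19, against -0.05 for all genes, and 37 of the 46 were below 0. The 3 YW3-56 values lay wholly below the 3 DMSO values for 28 of the 46, a larger share than the 21.4% of all genes. They lay wholly above for 4 of the 46, a smaller share than the 15.5% of all genes. In bulk RNA, fewer cells that express a gene and less of its RNA per cell cannot be told apart.

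Without DMSO replicate 1, 13 genes were lower and 4 higher, against 14.1% lower and 11.3% higher of all genes. The median of the 46 was then -0.15 and that of all genes -0.09, a smaller distance than with all 6 arrays. Leaving out YW3-56 replicate 2 or 3 left 11 called in each case, 10 lower and 1 higher. Under those 2 settings 14.4% and 12.8% of all genes were called. GINS1, POLE2, PCNA, RFC3, FEN1, UHRF1 and E2F7 kept their call under all 15 alternatives. Not all of these were strong checks. Averaging a gene's probe sets changed the values of UHRF1 alone among them, and leaving out dim genes kept their fold changes as they were. Centring each array on its median ended the calls of MCM6 (adjusted p = 0.115), GINS4 (0.183), TYMS (0.17), DNMT1 (0.092) and E2F2 (0.0636). A second quantile normalization ended those of GINS4 (0.0642), TYMS (0.0676) and E2F2 (0.0624), and a trended and robust prior those of GINS4 (0.0578) and E2F2 (0.051). When each gene was tested on its own variance, MCM6 (0.149), RRM2 (0.0657), TYMS (0.0906), E2F2 (0.152) and E2F8 (0.0855) were not called. The members that missed the threshold here but passed under 2 to 5 of the alternatives were ORC1, CDC6, CDT1, GMNN, POLA2, RFC5, RPA1 and RRM1.

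**Figure D1:**
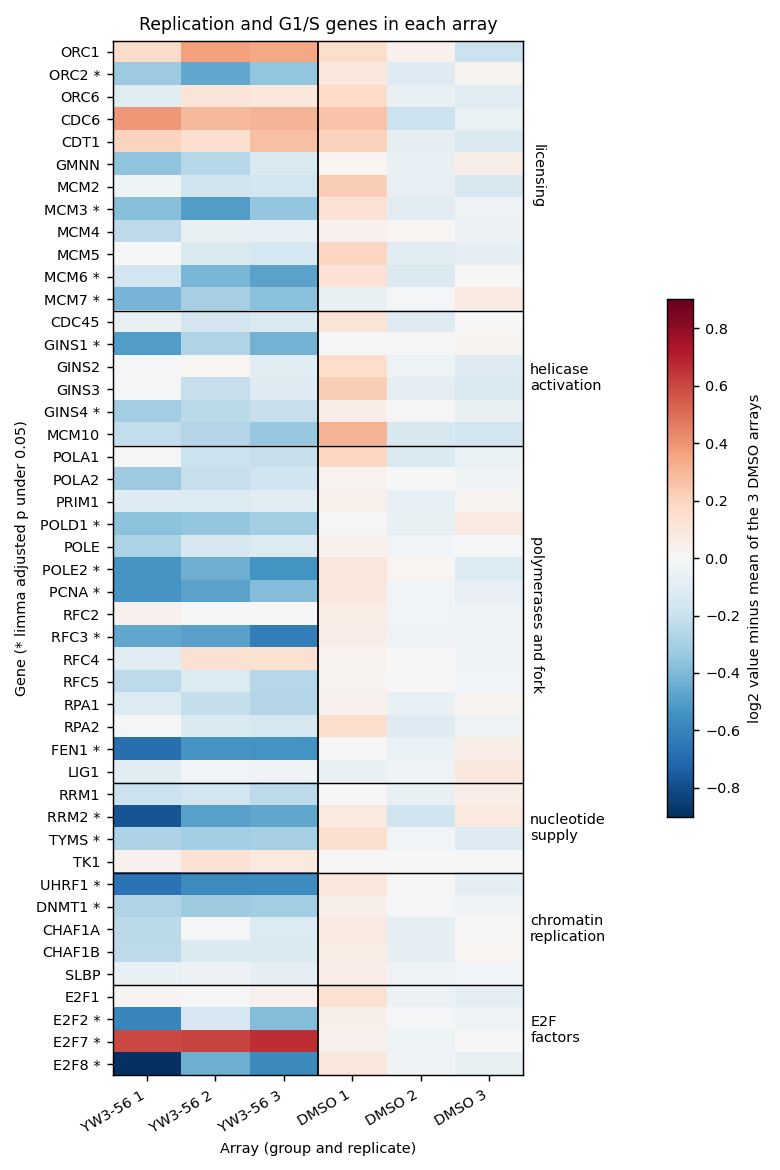
Log2 value of each of the 46 genes (rows, by role) minus its mean over the 3 DMSO arrays, for the 3 YW3-56 arrays and the 3 DMSO arrays (columns), with asterisks at genes that passed the test. Blue fills most YW3-56 cells of the genes that fell, E2F7 is red in all 3 YW3-56 arrays, and the column of DMSO replicate 1 is the reddest of the 3 DMSO columns.

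Among 12 licensing genes, 4 fell (33.3%, against 11.5% of all genes), 0 rose and 8 did not pass (median -0.13). Without DMSO replicate 1, 3 were lower and 3 higher (median -0.06), and without YW3-56 replicate 2 or 3, 1 was lower in each case. The ring subunits MCM3, MCM6 and MCM7 and the ORC subunit ORC2 were lower, while the loading factors CDC6 and CDT1 and the ORC subunit ORC1 had positive differences that missed the threshold. MCM3 measured 10.72, 10.60 and 10.75 in the YW3-56 arrays, against 11.23, 11.00 and 11.07 in the DMSO arrays. Every treated value was below every DMSO value, and the difference was -0.41 ± 0.09 (limma adjusted p = 0.012). MCM7 measured 11.25, 11.37 and 11.29 in YW3-56 and 11.60, 11.65 and 11.75 in DMSO, without overlap, a difference of -0.37 ± 0.08 (adjusted p = 0.011). MCM6 read 9.48, 9.24 and 9.17 in YW3-56, where replicate 1 lay only just below the lowest DMSO value, and 9.78, 9.52 and 9.65 in DMSO. Its difference of -0.35 ± 0.11 had an adjusted p of 0.049, close to the threshold. The other ring subunits did not pass, with differences of -0.13 ± 0.11 for MCM2, -0.12 ± 0.08 for MCM4 and -0.10 ± 0.10 for MCM5. Without DMSO replicate 1 the difference was -0.02 for MCM2, and that of MCM5 rounded to 0. All 6 subunits form 1 ring, and whether their changes differ from each other was not tested.

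ORC2, a subunit of the complex that marks origins, measured 9.74, 9.60 and 9.71 in YW3-56 and 10.16, 9.95 and 10.09 in DMSO, and the groups did not overlap (-0.38 ± 0.08, adjusted p = 0.013). The smallest ORC subunit, ORC6, was level at 0.03 ± 0.10 with overlapping groups. CDC6, the ATPase that recruits the ring with CDT1, measured 11.91, 11.81 and 11.82 in YW3-56 and 11.77, 11.32 and 11.46 in DMSO. The treated values were all higher, DMSO replicate 1 was close to them, and the difference of 0.33 ± 0.12 had an adjusted p of 0.081. With replicate number as a block, CDC6 passed (0.33 ± 0.08 SE, adjusted p = 0.033). For ORC1 the values were 9.59, 9.79 and 9.77 in YW3-56 and 9.58, 9.46 and 9.23 in DMSO (0.29 ± 0.11, adjusted p = 0.099), again with DMSO replicate 1 nearest to the treated arrays. CDT1, which brings the ring to the origin, read 9.83, 9.78 and 9.90 in YW3-56 and 9.84, 9.55 and 9.50 in DMSO, with DMSO replicate 1 inside the treated range (0.20 ± 0.10, adjusted p = 0.23). Without DMSO replicate 1 these 3 passed as higher, CDC6 by 0.46 (adjusted p = 0.0048), ORC1 by 0.37 (0.029) and CDT1 by 0.31 (0.023). That array held the highest DMSO value of each of them, so leaving it out had to raise their differences. None of the 3 passed when any other single array was left out. GMNN, geminin, which binds CDT1 and blocks licensing anew in S phase, went the other way, at 9.25, 9.35 and 9.47 in YW3-56 and 9.63, 9.54 and 9.66 in DMSO. Its groups did not overlap, its difference of -0.26 ± 0.08 missed the threshold (adjusted p = 0.066), and it passed with the block (-0.26 ± 0.07 SE, adjusted p = 0.047). CDC6, ORC1, CDT1 and GMNN, and below RFC5, TK1 and E2F1, were singled out after their values were seen.

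The calls of MCM6, MCM3, MCM7 and ORC2 were each lost in at least 1 fit that left out a single array. In those fits the differences were -0.42 to -0.29 for MCM6, -0.36 for MCM3 and MCM7, and -0.34 and -0.40 for ORC2. With all arrays they were -0.35, -0.41, -0.37 and -0.38 for MCM6, MCM3, MCM7 and ORC2. Without YW3-56 replicate 3 the calls among all genes also fell, from 3933 to 2364. A lost call alone therefore does not show that 1 array carried the difference. MCM6 was lost without DMSO replicate 1, 2 or 3 (adjusted p = 0.0762, 0.0582 and 0.0992) and without YW3-56 replicate 2 (0.148) or 3 (0.183), MCM3 without YW3-56 replicate 2 (0.0542), MCM7 without YW3-56 replicate 3 (0.0523), and ORC2 without YW3-56 replicate 2 (0.0597) or 3 (0.0502).

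Of the 6 genes that activate the helicase, 2 fell (33.3%, against 11.5% of all genes), 0 rose and 4 did not pass (median -0.18). Without DMSO replicate 1, 1 was lower (16.7%, against 14.1% of all genes) and the median was -0.09, equal to that of all genes. GINS1, a subunit of the 4-part GINS complex that joins CDC45 and the MCM ring at the fork, measured 10.19, 10.42 and 10.27 in YW3-56, against 10.68, 10.68 and 10.72 in DMSO. The DMSO values were nearly equal and all above the treated ones (-0.40 ± 0.08, adjusted p = 0.0095). GINS4 measured 8.26, 8.33 and 8.36 in YW3-56 and 8.63, 8.58 and 8.50 in DMSO, a difference of -0.25 ± 0.07 without overlap (adjusted p = 0.043). The remaining subunits GINS2 (-0.03 ± 0.09) and GINS3 (-0.11 ± 0.11) and CDC45 (-0.11 ± 0.08) had overlapping groups and did not pass, and GINS2 changed sign under another scaling of the arrays. MCM10, a fork factor that helps start unwinding, read 10.07, 10.03 and 9.95 in YW3-56 and 10.60, 10.15 and 10.13 in DMSO. Its difference of -0.27 ± 0.13 did not pass (adjusted p = 0.19) and was -0.12 without DMSO replicate 1, the highest of its DMSO values. GINS4 was lost without DMSO replicate 1 (0.0707) or 2 (0.131) and without YW3-56 replicates 1, 2 or 3 (0.133, 0.113 and 0.103).

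**Figure D2:**
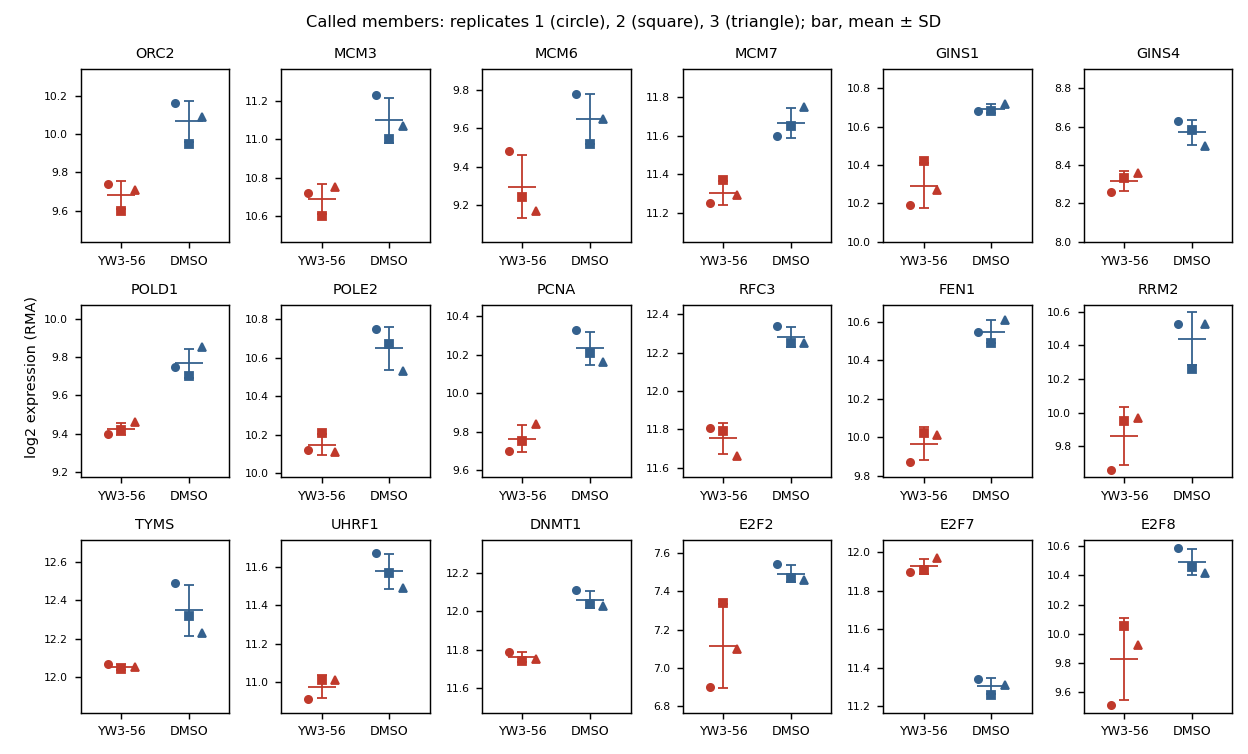
Log2 expression (vertical axes) of the 18 genes that passed the test, for YW3-56 (left, red) and DMSO (right, blue), with each array as a point and bars for mean ± SD (n = 3 per group). The groups do not overlap in any panel, and E2F7 is the panel in which YW3-56 lies above DMSO.

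Among 15 genes of the polymerases and the replication fork, 5 fell, 0 rose and 10 did not pass (median -0.20). The share lower was 33.3%, against 11.5% of all genes. The falls of FEN1, PCNA, RFC3 and POLE2 held under all 15 alternatives. Treated values lay wholly below the DMSO values for 10 of the 15 genes, against 21.4% of all genes. FEN1, the nuclease that trims Okazaki fragment flaps, measured 9.87, 10.02 and 10.01 in YW3-56 and 10.55, 10.49 and 10.61 in DMSO. The nearest values of the groups were far apart, and the difference was -0.58 ± 0.08 (adjusted p = 0.0016). PCNA, the sliding clamp on which FEN1 and the polymerases work, measured 9.70, 9.75 and 9.84 in YW3-56 and 10.33, 10.21 and 10.16 in DMSO. All treated values were lower, by -0.47 ± 0.08 on average (adjusted p = 0.0042).

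RFC3, a subunit of the loader that opens PCNA, measured 11.81, 11.79 and 11.66 in YW3-56 and 12.34, 12.25 and 12.25 in DMSO (-0.52 ± 0.08, adjusted p = 0.0023). Its partners in the same loader did not pass, with 0.01 ± 0.07 for RFC2, 0.06 ± 0.09 for RFC4 and -0.20 ± 0.07 for RFC5. For RFC5 the treated values of 10.71, 10.82 and 10.69 were still all below the DMSO values of 10.97, 10.94 and 10.92. POLE2, the second subunit of the leading-strand polymerase epsilon, measured 10.12, 10.21 and 10.11 in YW3-56 and 10.75, 10.67 and 10.53 in DMSO (-0.50 ± 0.08, adjusted p = 0.0038). Its catalytic partner POLE averaged 9.91 in YW3-56 and 10.10 in DMSO and did not pass (-0.18 ± 0.08, adjusted p = 0.14). POLD1, the catalytic subunit of the lagging-strand polymerase delta, measured 9.40, 9.42 and 9.46 in YW3-56 and 9.75, 9.70 and 9.85 in DMSO, again without overlap (-0.34 ± 0.07, adjusted p = 0.013). That call was lost without YW3-56 replicate 2 (0.0548).

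The primase and polymerase alpha genes, which lay down primers, did not pass: POLA1 differed by -0.14 ± 0.10, POLA2 by -0.24 ± 0.07 (adjusted p = 0.055) and PRIM1 by -0.11 ± 0.07. Nor did the single-strand binding genes RPA1 (-0.20 ± 0.07) and RPA2 (-0.09 ± 0.09) or LIG1, the ligase that seals Okazaki fragments (-0.06 ± 0.08). Differences between genes were not tested.

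**Figure D3:**
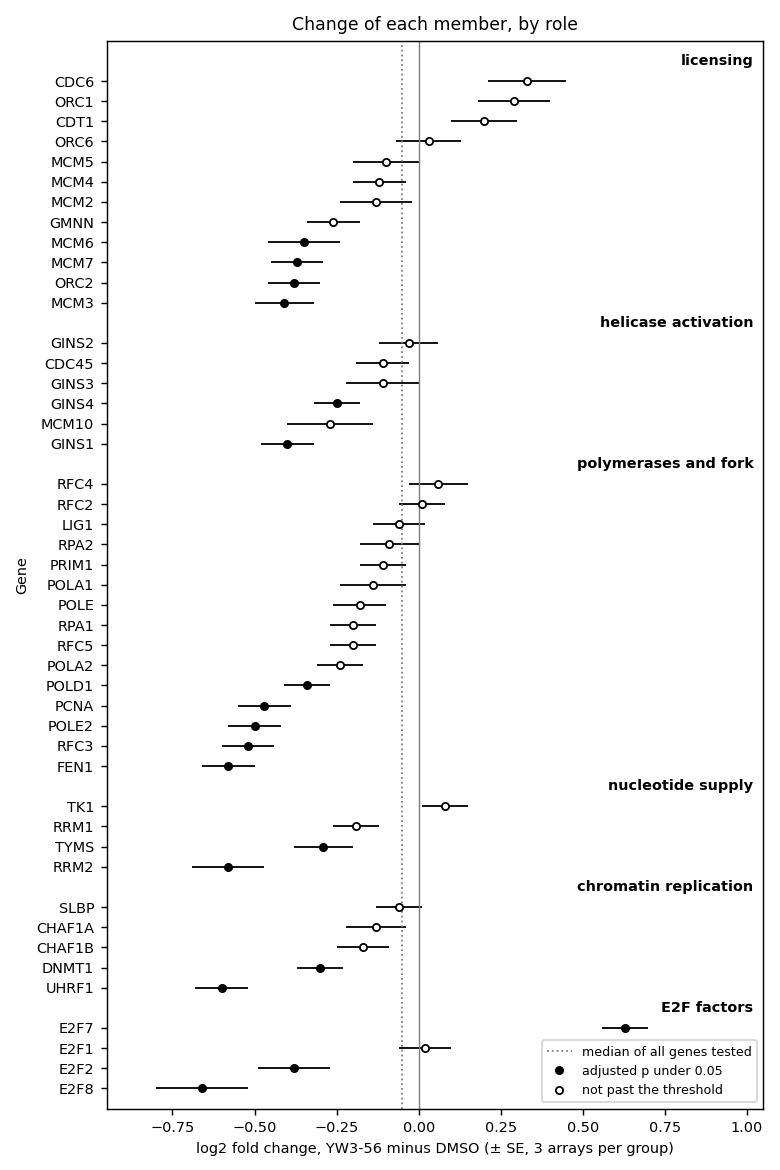
Log2 fold change of each of the 46 genes, YW3-56 minus DMSO (horizontal axis, ± SE, 3 arrays per group), grouped by role and ordered within it, with filled points for genes past the threshold and a dotted line at the median of all genes. In 5 of the 6 roles filled points lie only left of 0, and among the E2F factors E2F7 is filled at 0.63.

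In nucleotide supply, RRM2 and TYMS fell, and RRM1 and TK1 did not pass (2 of 4 lower, median -0.24). RRM2, the small subunit of ribonucleotide reductase, whose level rises in S phase and limits the enzyme, measured 9.66, 9.95 and 9.97 in YW3-56 and 10.53, 10.26 and 10.53 in DMSO. YW3-56 replicate 1 was the lowest array and the groups did not overlap (-0.58 ± 0.11, adjusted p = 0.0084). The large subunit RRM1 measured 11.70, 11.73 and 11.66 in YW3-56 and 11.90, 11.83 and 11.95 in DMSO, lower in every treated array, but its difference of -0.19 ± 0.07 missed the threshold (adjusted p = 0.096). TYMS, thymidylate synthase, measured 12.07, 12.04 and 12.05 in YW3-56, where the arrays were nearly equal, and 12.49, 12.32 and 12.23 in DMSO (-0.29 ± 0.09, adjusted p = 0.043). TK1, the salvage enzyme thymidine kinase, read 11.53, 11.62 and 11.58 in YW3-56 and 11.49, 11.49 and 11.50 in DMSO, slightly higher in each treated array (0.08 ± 0.07, adjusted p = 0.47). TYMS was lost without DMSO replicate 1 (0.0677) or 2 (0.104) and without YW3-56 replicates 1, 2 or 3 (0.0953, 0.127 and 0.135).

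Among the 5 genes that restore chromatin behind the fork, UHRF1 and DNMT1 fell, 0 rose and 3 did not pass (median -0.17). UHRF1 recognises hemimethylated DNA and recruits DNMT1, the maintenance DNA methyltransferase. UHRF1 measured 10.91, 11.01 and 11.01 in YW3-56, against 11.67, 11.57 and 11.49 in DMSO, with a wide gap between the groups (-0.60 ± 0.08, adjusted p = 0.0014). A second, dimmer UHRF1 probe set, 8032922, read 7.15, 7.44 and 7.09 in YW3-56 and 7.08, 7.39 and 7.66 in DMSO, with overlapping groups and a difference of -0.15. DNMT1 measured 11.79, 11.74 and 11.75 in YW3-56 and 12.11, 12.04 and 12.03 in DMSO, tight in both groups and without overlap (-0.30 ± 0.07, adjusted p = 0.016). The chromatin assembly factor subunits CHAF1A (-0.13 ± 0.09) and CHAF1B (-0.17 ± 0.08) and SLBP, which binds the stem-loop of histone mRNAs (-0.06 ± 0.07), did not pass. CHAF1B values were 9.99, 10.09 and 10.09 in YW3-56 and 10.29, 10.14 and 10.24 in DMSO, close but not overlapping. DNMT1 was lost without DMSO replicate 2 (0.0541), without YW3-56 replicate 2 (0.0684) or 3 (0.0716) and after centring of each array (0.092).

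The E2F factors moved in opposite directions. E2F7 rose, E2F8 and E2F2 fell, and E2F1 did not pass. These are only 4 genes, and of all genes 9.84% rose and 11.5% fell. E2F7, a repressor of G1/S genes whose promoter is printed above, measured 11.90, 11.91 and 11.97 in YW3-56 and 11.34, 11.26 and 11.31 in DMSO. The replicates were close in both groups and the treated arrays were all higher (0.63 ± 0.07, adjusted p = 0.00072). E2F8, the partner repressor of the same atypical class, measured 9.51, 10.05 and 9.92 in YW3-56, with replicate 1 lowest, and 10.59, 10.46 and 10.42 in DMSO (-0.66 ± 0.14, adjusted p = 0.01). The activator E2F2 was dim, at 6.90, 7.34 and 7.10 in YW3-56 and 7.54, 7.47 and 7.46 in DMSO, and the treated arrays were spread more widely than the DMSO arrays (-0.38 ± 0.11, adjusted p = 0.045). E2F1, the best known activator, read 10.57, 10.55 and 10.58 in YW3-56 and 10.68, 10.49 and 10.46 in DMSO, with the treated values inside the DMSO range (0.02 ± 0.08, adjusted p = 0.89). E2F2 was lost without DMSO replicates 1, 2 or 3 (0.0613, 0.113 and 0.0819) and without YW3-56 replicate 1 (0.123) or 3 (0.139).

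The other E2F genes, their DP partners and the pocket protein and DREAM genes formed a further list of 21. Of these, 4 rose (against 9.84% of all genes), 4 fell (19.0%, against 11.5%) and 13 did not pass (median -0.09). Without DMSO replicate 1, 3 were higher and 4 lower and the median was -0.01, against -0.09 for all genes. Leaving out any 1 array left 2 to 4 in each direction. E2F5, a repressor that works with pocket proteins, had the largest fall of the family, at 8.70, 8.77 and 8.81 in YW3-56 and 9.96, 9.98 and 9.81 in DMSO. The groups were far apart, and E2F5 was 2.23-fold lower (-1.16 ± 0.08, adjusted p = 0.00012). E2F4, its close relative, measured 11.00, 10.90 and 10.84 in YW3-56 and 11.49, 11.42 and 11.14 in DMSO (-0.44 ± 0.10, adjusted p = 0.019). That call was lost without DMSO replicate 2 (0.0778), without YW3-56 replicate 2 (0.0658) or 3 (0.0837) and after centring of each array (0.056). E2F4 was also not called when tested on its own variance (0.089). E2F3 (-0.25 ± 0.09) and E2F6 (0.14 ± 0.09) did not pass, but E2F3 passed as lower without DMSO replicate 1 (-0.33, adjusted p = 0.018). The DP subunits that pair with E2F proteins parted, with TFDP1 at 12.62, 12.64 and 12.64 in YW3-56 and 13.05, 13.00 and 13.01 in DMSO (-0.38 ± 0.07) and TFDP2 at 10.32, 10.15 and 10.08 in YW3-56 and 9.84, 9.66 and 9.82 in DMSO (0.41 ± 0.09). Both passed the test without overlap of the groups, and TFDP2 was lost without DMSO replicate 2 (adjusted p = 0.0642) or YW3-56 replicate 1 (0.0506). TFDP2 was also not called when tested on its own variance (0.0619). The fourth fall was that of MYBL2, a MYB factor that joins MuvB in the cell cycle (-0.24 ± 0.07, adjusted p = 0.045), which was lost when any array was left out (0.0522 to 0.141).

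LIN37 and LIN54 belong to MuvB, the core of the DREAM complex that holds cell cycle genes silent in quiescence. LIN37 measured 11.13, 11.07 and 10.97 in YW3-56 and 10.61, 10.50 and 10.35 in DMSO (0.57 ± 0.09, adjusted p = 0.0031), and LIN54 measured 9.24, 9.32 and 9.37 in YW3-56 and 8.87, 8.86 and 8.66 in DMSO (0.52 ± 0.09, adjusted p = 0.004). Both rose in every treated array. LIN52 also passed (0.29 ± 0.09, adjusted p = 0.046) but not with the replicate block (adjusted p = 0.052), without DMSO replicates 1, 2 or 3 (0.0565, 0.0975 and 0.111) or without YW3-56 replicate 1 (0.118) or 3 (0.181), and LIN9 (0.04 ± 0.07) and RBBP4 (0.10 ± 0.09) did not pass. The retinoblastoma gene RB1 (-0.15 ± 0.07), its relatives RBL1 (-0.04 ± 0.09) and RBL2 (0.11 ± 0.14), and the G1/S kinase genes CCNE1 (-0.21 ± 0.16), CCNE2 (-0.10 ± 0.11) and CDK2 (-0.06 ± 0.08) did not pass either. E2F3, E2F6, MYBL2, the DP genes and the MuvB, pocket protein and kinase genes other than LIN37 and LIN54 were named after their values were seen.

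**Figure D4:**
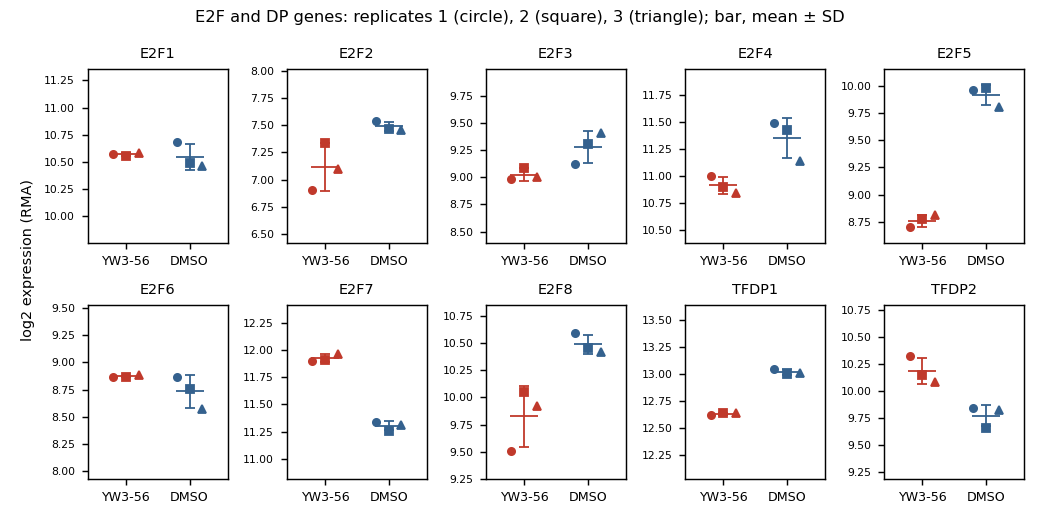
Log2 expression (vertical axes) of E2F1 to E2F8, TFDP1 and TFDP2 for YW3-56 (left, red) and DMSO (right, blue), with each array as a point and bars for mean ± SD (n = 3 per group). E2F7 and TFDP2 are higher in YW3-56, E2F2, E2F4, E2F5, E2F8 and TFDP1 are lower, and E2F5 has the widest gap.

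Replication machinery outside the main list was read from 36 genes. Of these, 6 fell, 0 rose and 30 did not pass, or 16.7% lower against 11.5% of all genes (median -0.04). TIPIN, which travels with the fork and steadies it, measured 9.64, 9.45 and 9.51 in YW3-56 and 10.96, 10.47 and 10.36 in DMSO. It was 2.09-fold lower (-1.06 ± 0.15, adjusted p = 0.002), and without DMSO replicate 1, its highest array, the difference was -0.88 (adjusted p = 0.00029). Its partner TIMELESS was level (-0.01 ± 0.07). CDC7, the kinase that fires licensed origins, measured 8.15, 8.43 and 8.52 in YW3-56 and 9.08, 9.01 and 9.21 in DMSO (-0.74 ± 0.11, adjusted p = 0.0025), while its activator DBF4 did not pass (0.05 ± 0.09). ORC5 measured 9.30, 9.40 and 9.40 in YW3-56 and 9.98, 10.04 and 10.09 in DMSO (-0.67 ± 0.07, adjusted p = 0.00066). ATAD5, which unloads PCNA, measured 8.81, 8.77 and 8.76 in YW3-56 and 9.56, 9.21 and 9.17 in DMSO (-0.53 ± 0.11, adjusted p = 0.01), and was not called when tested on its own variance (0.0707). The remaining calls were MCMBP (-0.39 ± 0.07) and POLE3 (-0.35 ± 0.09). POLE3 was lost without DMSO replicate 2 (0.0737) or YW3-56 replicates 1, 2 or 3 (0.0516, 0.0882 and 0.0889). TIMELESS, DBF4, MCMBP and POLE3 were named after their values were seen.

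Nucleotide synthesis beyond the main list held more falls than rises. Of 23 measured genes out of 26 listed, 10 fell (43.5%, against 11.5% of all genes). Another 2 rose (against 9.84% of all genes) and 11 did not pass (median -0.22). Leaving out any 1 array left 6 to 9 lower and 0 to 2 higher. UMPS, the last enzyme of pyrimidine ring synthesis, measured 9.46, 9.17 and 9.32 in YW3-56 and 10.12, 9.84 and 9.89 in DMSO (-0.64 ± 0.11, adjusted p = 0.0041). The earlier enzymes of the same pathway, CAD (-0.42 ± 0.07, adjusted p = 0.0032) and DHODH (-0.42 ± 0.08, adjusted p = 0.0068), fell as well, and their treated values lay wholly below the DMSO values. In purine synthesis, ADSL measured 10.91, 10.68 and 10.76 in YW3-56 and 11.33, 11.14 and 11.25 in DMSO (-0.46 ± 0.09, adjusted p = 0.008), with GART (-0.37 ± 0.08), ATIC (-0.31 ± 0.08), IMPDH1 (-0.33 ± 0.09) and PAICS (-0.26 ± 0.08) lower too. SAMHD1, which breaks down deoxynucleotides, measured 10.37, 10.35 and 10.28 in YW3-56 and 10.84, 10.74 and 10.75 in DMSO (-0.45 ± 0.07, adjusted p = 0.0034), and the salvage kinase DCK differed by -0.28 ± 0.08. The 2 that rose were CTPS1, which makes CTP, at 11.35, 11.07 and 11.29 in YW3-56 and 10.93, 10.62 and 10.82 in DMSO (0.45 ± 0.11, adjusted p = 0.021), and RRM2B, the alternative small subunit of ribonucleotide reductase (0.28 ± 0.07, adjusted p = 0.024). CTPS1 was lost without DMSO replicate 2 (0.0808), without YW3-56 replicate 1 (0.0757) or 3 (0.0875) and when tested on its own variance (0.0996). ATIC and RRM2B were lost without DMSO replicate 2 or 3 or YW3-56 replicate 2 or 3 (0.0537 to 0.107 for ATIC and 0.0529 to 0.108 for RRM2B). IMPDH1 and DCK were lost without any array other than DMSO replicate 1 (0.0666 to 0.119 for IMPDH1 and 0.0556 to 0.126 for DCK), and PAICS without any of the 6 (0.0559 to 0.171). The genes of this list other than UMPS, ADSL, SAMHD1 and CTPS1 were named after their values were seen.

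Further chromatin genes went both ways, with 6 of 15 lower, 3 higher and 6 not past the threshold (median -0.13). Leaving out YW3-56 replicate 1, 2 or 3 left 1 lower in each case, CBX5, and leaving out a DMSO array left 3 to 5. Without YW3-56 replicate 1, 2 or 3, 1711, 1309 and 1206 of all genes were lower, against 2121 with all 6 arrays. CBX5, the heterochromatin protein HP1 alpha, measured 11.68, 11.82 and 11.84 in YW3-56 and 12.25, 12.42 and 12.36 in DMSO (-0.56 ± 0.08, adjusted p = 0.0023). HELLS, a remodeller needed for DNA methylation, measured 9.32, 9.17 and 9.19 in YW3-56 and 9.97, 9.50 and 9.60 in DMSO (-0.47 ± 0.12, adjusted p = 0.029), and was lost without YW3-56 replicates 1, 2 or 3 (0.0527, 0.0983 and 0.106). HELLS was also lost after centring of each array (0.0639) and when tested on its own variance (0.134). NASP (-0.30 ± 0.07), TONSL (-0.29 ± 0.08), BAZ1A (-0.33 ± 0.08) and USP7 (-0.30 ± 0.08), the other genes that fell, were named after their values were seen and were likewise lost without each of the YW3-56 replicates (0.0529 to 0.135). The rises were those of the histone chaperone ASF1A, at 11.35, 11.35 and 11.40 in YW3-56 and 10.91, 10.83 and 10.78 in DMSO (0.53 ± 0.07, adjusted p = 0.0018), and of CASP8AP2, at 9.40, 9.52 and 9.49 in YW3-56 and 9.11, 8.76 and 8.75 in DMSO (0.60 ± 0.11, adjusted p = 0.0061), which was not called when tested on its own variance (0.0537). CASP8AP2 and NPAT both serve histone gene transcription, and NPAT, named after its values were seen, also rose (0.44 ± 0.07, adjusted p = 0.0033). The treated arrays lay wholly above the DMSO arrays for all 3.

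Of 9 measured S phase checkpoint genes out of 10 listed, 3 rose, 2 fell (22.2%) and 4 did not pass (median 0.08). Over all genes 9.84% rose and 11.5% fell. ATRIP had no probe set of its symbol alone. RAD9A, a subunit of the checkpoint clamp formed with RAD1 and HUS1, measured 10.98, 11.07 and 11.02 in YW3-56 and 10.28, 10.14 and 10.22 in DMSO. It was 1.75-fold higher without overlap (0.81 ± 0.07, adjusted p = 0.00034), HUS1 was higher as well (0.42 ± 0.09, adjusted p = 0.011), and RAD1 did not pass (-0.20 ± 0.09). ETAA1, an activator of the checkpoint kinase ATR, measured 8.52, 8.50 and 8.66 in YW3-56 and 7.93, 7.86 and 7.94 in DMSO (0.65 ± 0.08, adjusted p = 0.00089). ATR itself measured 8.66, 8.52 and 8.54 in YW3-56 and 9.36, 9.14 and 9.02 in DMSO and fell (-0.60 ± 0.10, adjusted p = 0.0042), while its effector kinase gene CHEK1 did not pass (0.08 ± 0.08). RFWD3, a ubiquitin ligase that acts on RPA, measured 11.33, 11.24 and 11.33 in YW3-56 and 11.93, 11.84 and 11.94 in DMSO (-0.60 ± 0.07, adjusted p = 0.00096). HUS1, RAD1 and CHEK1 were named after their values were seen.

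**Figure D5:**
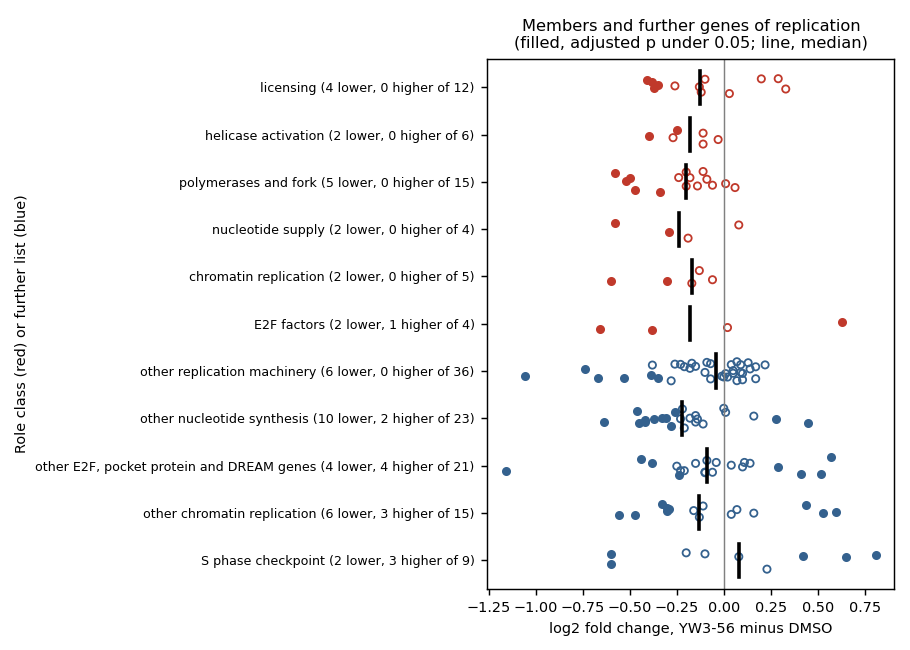
Log2 fold change, YW3-56 minus DMSO (horizontal axis), of each gene in the 6 roles of the main list (red) and the 5 further lists (blue), with filled points past the threshold and a black line at each median. The medians lie between -0.24 and 0.08, and E2F5 at -1.16 and TIPIN at -1.06 are the points farthest left.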

How the data were processed

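Total RNA of 6 cultures was hybridised to Affymetrix arrays. The deposited values are log2 expression per probe set, which the authors made with RMA and the affy package, per the submitters' processing notes. No source used here gives their versions or the annotation build. Because RMA equalises arrays at the level of probes, a common shift of every transcript is invisible. The medians of the deposited arrays still ran from 7.55 to 7.74. After a second quantile normalization, or centring of each array, the median log2 fold change was -0.16 for the 46 and -0.02 for all genes. Arrays carry no read depth, and their number limits the precision. The table held 33297 probe sets, of which 19460 carry a single symbol in the platform annotation, 1754 several and 12083 none. The brightest single-symbol probe set per gene gave 18417 genes, and 45 of the 46 members had 1 probe set.

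The comparison of the 3 YW3-56 with the 3 DMSO arrays used limma 3.58.1 under R 4.3.3 (lmFit and eBayes, group as the only term, no filter, two-sided, Benjamini-Hochberg over all genes, 4 residual and 4.17 prior degrees of freedom), after a check on simulated data. Differences are given with their standard error (SE) where ± follows them. The members and lists were chosen with earlier results of these data known. Values of every array were given for called members and up to 3 with the largest change per role, and up to 4 genes were named per further list, with exceptions marked. A planned search for PCNA-binding motifs in proteins was not made, since protein sequences were not used here.

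Deviations of same-numbered arrays from their group means correlated over genes at 0.539, 0.370 and 0.102. Each value was above the bound of 0.1, the last only just, and YW3-56 replicate 2 correlated at 0.416 with DMSO replicate 3. Whether the label numbers mark pairs was therefore not established. The main comparison had group as its only term and used no pairs. Pairs by label number entered only where the block is named, in an alternative run beside 14 others.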

Additional observations from a re-analysis of the deposited data

How the results depend on the processing

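Under 15 alternatives to the fit, the number of replication genes called stayed within 1.5 times the 18 given above, except when YW3-56 replicate 2 or 3 was left out. Leaving out 1 array at a time gave 11 to 17 called genes, a median log2 fold change of -0.21 to -0.15 for the 46, and 2364 to 4689 calls among all genes. Array weights raised the calls among all genes to 6079, from 3933, with weights of 2.94 for DMSO replicate 2 and 0.33 for DMSO replicate 1. These weights came from the gene-by-gene algorithm of limma, taken after its default REML algorithm had been seen not to converge. The unconverged REML weights, added after seeing the data, gave DMSO replicate 2 a weight of 13.65 and called 9156 of all genes and 26 of the 46 (22 lower and 4 higher, median -0.14), with all 18 calls kept. With replicate number as a block, 20 of the 46 were called, 18 lower and 2 higher, the additions being CDC6 and GMNN; of the further genes the block added POLE4 and RAD17, ended the call of LIN52 and changed no other call of a listed gene. No gene named by the rule changed direction under any of the 15. Of the 18 calls among the 46, 7 held under all alternatives that could be run and 11 were lost under at least 1. For the further genes and markers, not every loss under an alternative is listed above. E2F2 was not tested when genes below the median brightness were left out. E2F2 was dim, with array values from 6.90 to 7.54, and kept its call when the dimmest 25% of genes were left out (adjusted p = 0.0334).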
